A study of Mus musculus with 6 samples.

Results

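Transcripts that host small RNAs and transcripts named for the gene on the opposite strand were compared between control and *Arid1b* mutant incisors. The members were chosen by name, namely rows of the expression table whose gene symbol is *Snhg* followed by a number or ends in os with or without a number, with 7 unrelated symbols left out (*Fos*, *Icos*, *Mos*, *Nos1*, *Nos2*, *Nos3* and *Ros1*). These names matched 122 of 19270 genes. Of the 122, 15 were *Snhg* transcripts (small nucleolar RNA host genes), 94 were opposite-strand transcripts and 13 carried the ending for another reason (*Micos10*, *Micos13*, *Mios*, *Mocos*, *Nanos1*, *Nanos3*, *Nrros*, *Otos*, *Pros1*, *Selenos*, *Sos1*, *Sos2* and *Uros*). The last were counted and set apart. For 93 of the 94 opposite-strand transcripts, the gene that the symbol names was in the table, which gave 93 pairs with 89 partner genes. The exception was *Zbtb8os*, since no gene is called *Zbtb8*.

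RNA was sequenced in bulk from 3 control and 3 mutant mice. The labels give the tissue as incisor, and the study's methods as mesenchyme dissected from its proximal part, collected 4 days after tamoxifen, which was given at 1 month of age. The mutants carried Gli1-CreER;Arid1b fl/fl, so that tamoxifen switched on a recombinase in cells that express *Gli1*, in both the mesenchymal and the epithelial lineage of the incisor. The controls are named wild type in the sample labels and Arid1b fl/fl mice with tamoxifen in the study's methods, so both groups received tamoxifen and it is not certain that both carried the floxed alleles. The values are the authors' mean normalized value of each group, here called the level, and the ratio is the mutant level divided by the control level. No value per gene and mouse was analysed here, so no level has an SD, no difference was tested, and it is not known which of the differences below exceed the spread between mice. The targeted gene *Arid1b* (chr17:4994332-5347656) was at 97.6 in the controls and 38.0 in the mutants, a log2 ratio of -1.36. The libraries held about 37123643 to 49594469 reads on the listed genes, an estimate from the lowest value of each library, and a level of 0.103 (controls) or 0.0923 (mutants) corresponds to 3 reads per library.

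Small nucleolar RNAs (snoRNAs) guide the modification and processing of ribosomal RNA and other RNAs, and most are cut from the introns of longer host transcripts. In an *Snhg* transcript the intron carries the functional RNA, whereas the spliced exons are often degraded by nonsense-mediated decay during translation. Many host transcripts begin with a run of pyrimidines, as ribosomal protein mRNAs do, and such a start couples translation to mTORC1 signalling. Opposite-strand transcripts arise beside or across a coding gene in the other orientation. Some are by-products of an active promoter, and others act on their neighbour or carry microRNAs.

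The small RNAs inside the hosts are shown first, since the exon level of a host stands in these data for a transcript whose product is mostly elsewhere. GENCODE vM21 placed at least 1 small RNA gene inside each of the 14 *Snhg* genes that could be located, from 1 in *Snhg6*, *Snhg8*, *Snhg15*, *Snhg18* and others to 8 in *Snhg1* and 208 in *Snhg14*, the imprinted host of tandem snoRNA arrays. The products shown belong to *Snhg15*, which had the highest ratio among the hosts, to *Snhg5*, and to *Snhg18*, which had the highest level per kilobase of exon. They are written as DNA on GRCm38 from the GENCODE transcripts. Capitals mark the letters TGATGA and CTGA in the C/D box guides and ACA near the 3′ end in the H/ACA box guide.
Snora9 in Snhg15, H/ACA (chr11:6528033-6528165, - strand): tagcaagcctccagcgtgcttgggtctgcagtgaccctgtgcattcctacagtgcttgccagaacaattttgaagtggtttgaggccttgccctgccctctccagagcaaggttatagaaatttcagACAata
Snord50a in Snhg5, C/D (chr9:88521529-88521600, - strand): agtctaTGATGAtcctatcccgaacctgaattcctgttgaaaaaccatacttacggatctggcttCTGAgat
Snord123 in Snhg18, C/D (chr15:32241853-32241923, - strand): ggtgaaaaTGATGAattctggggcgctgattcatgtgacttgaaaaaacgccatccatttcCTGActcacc
The letters of a C/D box were found in both small RNAs of *Snhg5* and in 6 of 8 in *Snhg1*, and the terminal ACA in all 3 of *Snhg17* and both of *Snhg3*. Small RNAs of this length are poorly captured by most RNA-seq libraries. Rows of their own were examined for 6 small RNAs. Of these, *Snora73a* and *Snora73b* of *Snhg3* were at 0.204 and 0.401 in controls, against 0.324 and 0.579 in mutants. The others, *Scarna2*, *Scarna17*, *Snora17* and *Snora57*, lie outside the located *Snhg* genes. All 6 rows had a mean under 1.

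Of the 15 *Snhg* transcripts, 12 were higher and 3 lower in the mutants, with a median log2 ratio of 0.17 and a range from -0.37 to 0.52. None differed by more than 1.5-fold, the fold used in the study's methods. Among the 14744 genes with a mean of both groups of at least 1, 6.05% were past this fold, 4.14% higher and 1.91% lower in the mutants. The median over those 14744 genes was 0.00 and 51.4% of them were higher, against 80.0% of the *Snhg* transcripts, and this difference was not tested. All 15 passed the minimum of 1. The median over 700 other noncoding genes that passed it was -0.04, with 43.6% higher.

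*Snhg15* had the largest difference, at 4.95 in the controls and 7.07 in the mutants (log2 ratio 0.52). It lies on chromosome 11 (chr11:6525591-6528760) and carries *Snora9*. *Snhg3*, the host of the *Snora73* pair that takes part in ribosomal RNA cleavage, was at 6.19 and 7.53 (0.28). *Snhg17* was at 23.9 and 29.0 (0.28). Of the 8 located hosts with an H/ACA guide, which include these 3, 6 were higher, with a median of 0.09 and a range from -0.37 to 0.52. Of the 6 without one, 5 were higher, with a median of 0.18.

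*Snhg16* was at 6.21 in the controls and 7.28 in the mutants, a log2 ratio of 0.23. *Snhg1*, a host of C/D guides, was at 34.4 and 39.9 (0.22). *Snhg4* was at 8.81 and 10.1 (0.19), and *Snhg6* at 10.3 and 11.8 (0.19). Each of these 4 differed less than *Snhg15* on the log2 scale.

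*Snhg14* was at 10.3 in the controls and 11.6 in the mutants (0.17). *Snhg5* was at 18.8 and 21.1 (0.17), and *Snhg12*, which carries both guide types, at 12.7 and 13.8 (0.12). *Snhg20* was at 6.98 and 7.28 (0.06) and *Snhg8* at 14.5 and 14.8 (0.03), and both were therefore nearly level between the groups.

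The 3 *Snhg* transcripts on the lower side were *Snhg18* at 47.3 and 43.8 (-0.11), *Snhg10* at 1.06 and 1.03 (-0.04) and *Snhg11* at 1.74 and 1.34 (-0.37). *Snhg10* and *Snhg11* rest on the fewest reads, about 120 and 198 over the control libraries. In the plot of levels by transcript, the shift to the mutant side is seen from *Snhg15* up to *Snhg1*.

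**Figure D1:**
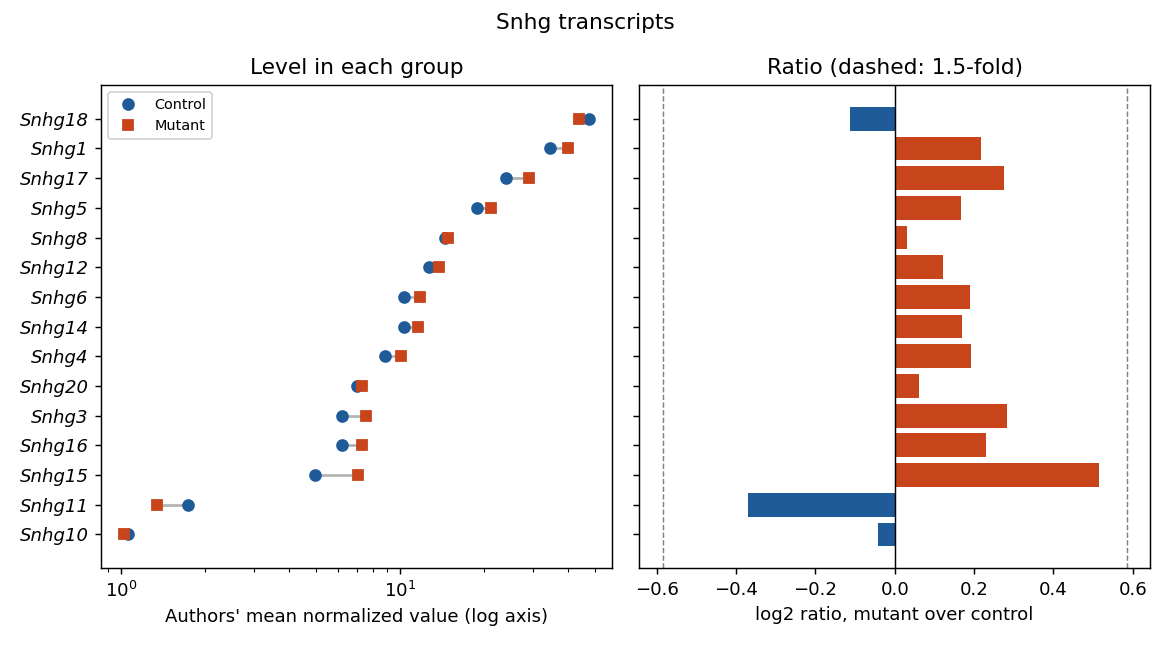
Left, the authors' mean normalized value of each *Snhg* transcript in the control (circles) and mutant (squares) groups on a log axis. Right, the log2 ratio of mutant over control, with dashed lines at 1.5-fold. Of the 15 transcripts, 12 lie to the right of 0 and none crosses a dashed line. No error bars are drawn, since only group means were analysed.

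Per kilobase of annotated exon, the order of levels in the controls ran from *Snhg18* at 31.9 through *Snhg8* at 17.0, *Snhg1* at 11.6, *Snhg5* at 10.9 and *Snhg6* at 9.02, then *Snhg3*, *Snhg12*, *Snhg15*, *Snhg17*, *Snhg20*, *Snhg16* and *Snhg10* between 6.28 and 2.00, to *Snhg14* at 0.395 and *Snhg11* at 0.204. *Snhg14* has 26093 bases of annotated exon, the most of the 14. The 7 transcripts with a value given were at 29.5, 17.3, 13.5, 12.2, 10.3, 0.445 and 0.158 per kilobase in the mutants, and the order was kept among these 7. *Snhg4* had no position in the annotation used and no value on this scale.

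Exons of 4 *Snhg* genes overlap an exon of a gene on the other strand, and those of 3 overlap one on the same strand. *Snhg3* shares 705 of its 986 exonic bases with *Gm17300*, a noncoding gene across from it, and 135 with *Rcc1* on its own strand. *Snhg14* runs across *Ube3a*, with 1803 shared bases. Whether the authors counted reads by strand is not given in the sources used here, so reads of such pairs cannot be told apart.

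The machinery around the hosts showed ratios near 1. Of 16 other snoRNA hosts, which include translation factor genes and noncoding hosts, 14 were higher in the mutants and none was past the fold, with a median log2 ratio of 0.09. *Gas5*, a noncoding host whose exons are a known substrate of nonsense-mediated decay, was at 141 and 151 (0.10). Of 8 core proteins of the snoRNA particles, 7 were higher, with a median of 0.09 and the highest value in *Nop58* (89.1 and 101, 0.18), and both *Nop56* and *Nop58* are themselves hosts and stand in both lists. Of 7 assembly factors, 6 were higher, with a median of 0.06.

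Factors of nonsense-mediated decay and regulators of mTORC1 did not stand past the fold either. Of 17 nonsense-mediated decay factors, 10 were higher and 7 lower, with a median log2 ratio of 0.03. Of 9 regulators of mTORC1 and pyrimidine-start mRNAs, 5 were higher, with a median of 0.06. That list pools activators and inhibitors, so its count gives no direction for the pathway. Integrated stress response genes were a separate list. Of the 9 that passed the minimum, 4 were higher and 5 lower. *Chac1*, which degrades glutathione, was past the fold at 5.81 and 2.73 (-1.09).

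The start sequences of the hosts were examined for the pyrimidine run. The run was defined as a C followed by at least 4 bases that are C or T, beginning no more than 5 bases from the annotated start, on the transcript's strand. It was present in 5 of 13 *Snhg* genes with a RefSeq start (38.5%, namely *Snhg3*, *Snhg8*, *Snhg10*, *Snhg12* and *Snhg18*), against 21.2% of 27025 genes, 47.5% of 61 cytosolic ribosomal protein genes and 2 of 14 other hosts. The opposite-strand transcripts had it about as often as the *Snhg* genes, in 22 of 63 (34.9%). Among the 5 *Snhg* genes with the run the log2 ratios were 0.28, 0.03, -0.04, 0.12 and -0.11, and *Snhg15*, which had the highest ratio, had no run. The windows below, from RefSeq on GRCm38.p6, hold 25 bases before the annotated start and the same number from it onward, with the run in capitals. They show hosts with the run and a ratio above 1 (*Snhg3* and *Snhg12*) or below 1 (*Snhg18*), and the host with the highest ratio and no run (*Snhg15*).
Snhg3 (chr4:132353662-132353711, - strand): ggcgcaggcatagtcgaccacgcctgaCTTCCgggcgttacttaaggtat
Snhg12 (chr4:132308653-132308702, + strand): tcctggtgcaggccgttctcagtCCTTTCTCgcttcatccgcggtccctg
Snhg18 (chr15:32244638-32244687, - strand): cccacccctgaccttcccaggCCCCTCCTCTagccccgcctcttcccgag
Snhg15 (chr11:6528736-6528785, - strand): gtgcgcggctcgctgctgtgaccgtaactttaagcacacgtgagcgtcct
The promoters of the *Snhg* genes were rich in CpG, with a median of 23.5 in the 300 bases from 250 before the start to 50 after it, against 7 over all genes. This is not particular to them, since the median was 27 in the other hosts and 21 in the ribosomal protein genes. An absent run says only that these letters are not at the annotated start.

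Of the 94 opposite-strand transcripts, 43 had a mean of at least 1 and 51 did not. Among the 43, 16 were higher and 27 lower in the mutants, with a median log2 ratio of -0.05 and a range from -1.23 to 0.63. Past 1.5-fold there were 4 of the 43 (9.30%), 1 higher and 3 lower. The share over all genes with a mean of 1 to 10 was 13.0%, and that over genes with a mean of at least 10 was 3.06%. All 4 had a mean under 10, where they were 13.3% of the 30 opposite-strand transcripts, close to the share over all genes at that level. Over other noncoding genes with a mean of 1 to 10 the share was lower, at 6.81%, and this difference was not tested. Taken as coding were the 6 annotated as protein coding and *Pigbos1*, annotated as a processed transcript but known to encode a microprotein, and these 7 had a median of -0.01. The other 36 had a median of -0.12.

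**Figure D2:**
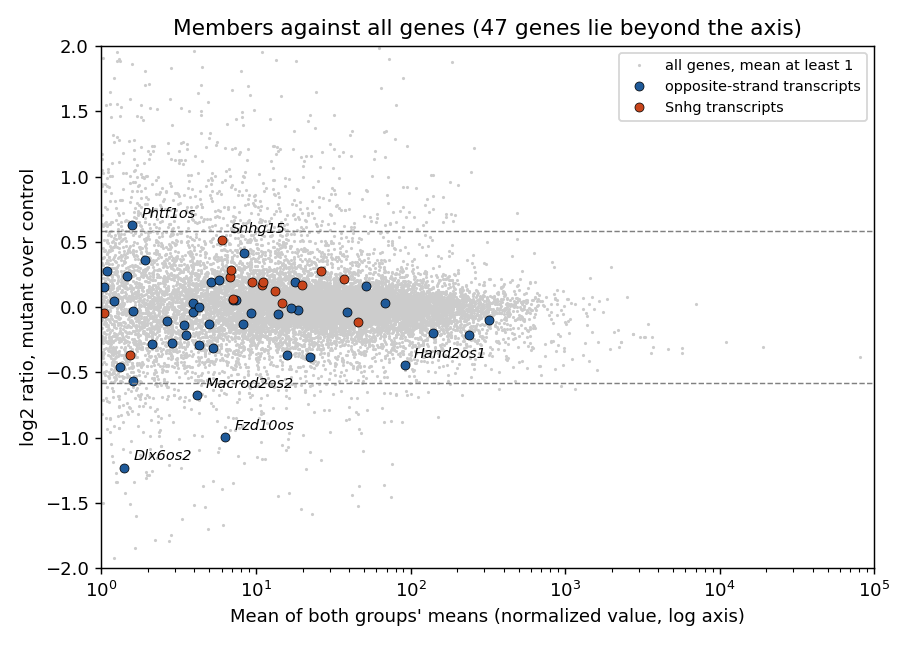
Each point is 1 gene, with the mean of both groups' levels on a log axis across and the log2 ratio of mutant over control upward. Grey points are all genes with a mean of at least 1, blue points the 43 opposite-strand transcripts and orange points the 15 *Snhg* transcripts. Dashed lines mark 1.5-fold, and 47 genes lie beyond the vertical axis. The 4 opposite-strand transcripts past a line have means under 10, where the grey points spread most.

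*Fzd10os* starts 151 bases from *Fzd10*, a Wnt receptor gene, and runs away from it (chr5:128579106-128600693, minus strand). Its level was 8.43 in the controls and 4.23 in the mutants, a log2 ratio of -0.995, with about 975 and 547 reads over the 3 libraries. *Fzd10* (chr5:128600844-128604093) was also lower, at 16.2 and 11.2 (-0.53), which did not pass the fold. The exons of the 2 genes do not overlap.

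*Dlx6os2* lies inside *Dlx6*, a homeobox gene of jaw and tooth patterning, on the other strand (chr6:6863797-6865150). It was at 1.98 and 0.843 (-1.23), from about 226 and 107 reads. *Dlx6* was at 34.9 and 42.9 (0.30), on the other side of no change, although 104 exonic bases of *Dlx6os2* lie across its exons. The longer *Dlx6os1* spans the same interval on the same strand and was at 258 and 223 (-0.21).

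*Macrod2os2* lies in *Macrod2*, the gene of an ADP-ribosylhydrolase, 840117 bases from its start (chr2:141229670-141235426, minus strand). It was at 5.08 in the controls and 3.19 in the mutants (-0.67). *Macrod2* was at 30.3 and 23.2 (-0.38). Both were lower, and only the transcript was past the fold. It shares 1072 of its exonic bases with *Macrod2os1* on the same strand.

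*Phtf1os* was the only one past the fold on the higher side, at 1.24 and 1.92 (0.63), from about 141 and 247 reads. It lies at chr3:103964536-103968581 on the minus strand and overlaps the start of *Phtf1*, which was nearly level at 58.4 and 56.8 (-0.04). Of its exonic bases, 51.9% lie across *Rsbn1*, so its value cannot be told apart from that gene's if reads were counted without strand.

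The 13 opposite-strand transcripts with a mean of at least 10 were all within the fold, with 3 higher and 10 lower in the mutants and a median log2 ratio of -0.05. Per kilobase of exon, *Dlx6os1* (49.9 in the controls), *Dlx4os* (40.7), *Oip5os1* (40.1), *Dio3os* (23.3) and *Brip1os* (22.9) had the highest levels. In the mutants these were at 43.0, 41.6, 37.4, 22.8 and 20.0. *Dlx6os1* thus remained the highest, with *Dlx4os* next.

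Transcripts next to genes of developmental regulators are given first. *Hand2os1*, across from the start of the transcription factor gene *Hand2*, was at 106 in the controls and 78.1 in the mutants (-0.44). *Hand2* itself was at 142 and 116 (-0.30). *Foxd2os* was at 17.9 and 13.9 (-0.37), and *Foxd2*, a forkhead factor gene, at 20.2 and 16.4 (-0.30). In both pairs the transcript and its partner were lower by similar amounts.

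*Dlx6os1*, also known as Evf2, acts with DLX proteins at the enhancers of *Dlx5* and *Dlx6*, and it and *Dlx6* lay on different sides of no change as given above. *Dlx4os* was at 67.8 and 69.2 (0.03) beside *Dlx4* at 151 and 107 (-0.49). The transcript was level while the homeobox gene was lower, with 79 exonic bases shared.

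*Cep83os* was at 25.3 in the controls and 19.4 in the mutants (-0.38). *Cep83*, which encodes a protein of the centriole's distal appendages, was at 25.7 and 27.8 (0.11). *Brip1os* was at 149 and 130 (-0.20), and *Brip1*, a DNA repair helicase gene, at 12.6 and 13.1 (0.06). In both pairs the noncoding transcript was lower and the coding gene slightly higher. Of the exons of *Brip1os*, 800 bases also lie across *Med13*.

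*Oip5os1*, known as Cyrano and for its paired site for miR-7, was at 333 and 310 (-0.10). *Oip5*, a centromere protein gene that it runs towards, was at 3.22 and 3.64 (0.18). *Dio3os*, in an imprinted domain, was at 39.3 and 38.3 (-0.03), and *Dio3*, which inactivates thyroid hormone, at 59.0 and 58.4 (-0.02). *Rab10os* was at 14.2 and 13.7 (-0.05) beside *Rab10*, a vesicle GTPase gene, at 183 and 189 (0.05).

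*Dnm3os* was one of the 3 on the higher side, at 48.9 in the controls and 54.6 in the mutants (0.16). It lies in *Dnm3*, a dynamin gene, on the other strand (chr1:162217623-162225550) and is the precursor of 2 microRNA hairpins that are typical of mesenchyme. *Dnm3* was at 48.7 and 52.3 (0.10), and their exons do not overlap. The mature microRNAs from RefSeq on GRCm38.p6 follow, with the seed (bases 2 to 8) in capitals. All 4 seeds differ from each other.
miR-199a-5p (chr1:162217844-162217866, + strand): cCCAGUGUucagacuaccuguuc
miR-199a-3p (chr1:162217883-162217904, + strand): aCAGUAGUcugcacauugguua
miR-214-5p (chr1:162223397-162223418, + strand): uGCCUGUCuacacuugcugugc
miR-214-3p (chr1:162223438-162223459, + strand): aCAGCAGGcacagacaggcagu
The level of the precursor does not give that of the mature microRNAs, which were not analysed here.

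The remaining members of this level encode proteins. *Slc7a6os*, which takes part in the nuclear import of RNA polymerase II, was at 16.7 and 19.1 (0.19), and the amino acid transporter gene *Slc7a6* at 50.7 and 54.9 (0.11). *Wdr83os*, part of a membrane protein chaperone of the endoplasmic reticulum, was at 18.8 and 18.6 (-0.02), and *Wdr83* at 11.4 and 11.1 (-0.04). *Zbtb8os*, or archease, a cofactor of tRNA ligation, was at 16.8 and 16.7 (-0.01). For *Wdr83os*, 539 exonic bases lie across *Wdr83*, which is 52.3% of its exons.

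Several transcripts of lower level, outside the rule for named genes and picked after their values were seen, lay near the fold. *H3f3aos* was at 1.91 and 1.29 (-0.57) while the histone gene *H3f3a* was at 511 and 524 (0.04). *Prss23os* was at 1.53 and 1.11 (-0.46), and its partner is described below. *Tbx3os1* was at 7.20 and 9.61 (0.42) while *Tbx3*, a T-box factor gene, was at 127 and 110 (-0.21). The first and the last of these differ in direction from their partners.

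The partner genes were compared as a group. Of 86 partners with a mean of at least 1, 41 were higher and 45 lower in the mutants, with a median log2 ratio of -0.01. Past 1.5-fold there were 8 (9.30%), 6 higher and 2 lower, against 6.05% over all genes. The median level was 27.5 in the partners and 23.6 over all genes. Of the 8, 6 had a mean of at least 10, where the share over all genes was 3.06%. The difference in share was not tested.

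*Igf1*, the insulin-like growth factor gene, had the largest difference among them, at 161 and 329 (1.04). *Igf1os* was at 0.398 and 0.354 (-0.17). *Hopx*, a homeodomain protein gene, was at 9.98 and 16.4 (0.71), and *Hopxos* at 0.138 and 0.264 (0.94). *Jun* was at 18.3 and 29.3 (0.68), and *Junos* at 0.299 and 0.458 (0.61). *Hopxos* and *Junos* rest on few reads, about 13 and 31 for the first and 32 and 57 for the second. Of their exonic bases, 412 and 232 lie across the partner's exons. Their values therefore cannot be told apart from the partner's if reads were counted without strand.

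*Jun* is an immediate early gene, and 5 of 10 genes of that list were past the fold on the higher side, with 1 on the lower. The others on the higher side were *Fos* (2.44 and 4.41), *Egr1* (7.96 and 14.7), *Atf3* (0.748 and 1.61) and *Nr4a1* (5.51 and 8.64), and *Fosb* was lower (1.32 and 0.817). Such genes respond to tissue handling within minutes, and its part in the value of *Jun* was not tested.

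*Epb41l4a* was at 9.11 and 14.1 (0.63), and *Epb41l4aos* at 4.77 and 5.45 (0.19). *Plxna4*, a semaphorin receptor gene, was at 32.6 and 49.8 (0.61), and *Plxna4os1* at 0.461 and 0.342 (-0.43). *Kcnmb4*, a potassium channel subunit gene, was at 2.28 and 3.44 (0.60), and *Kcnmb4os2* at 0.208 and 0.228 (0.13). Of these 3 transcripts only *Epb41l4aos* had a mean of at least 1.

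On the lower side, *Lrp8*, a reelin receptor gene, was at 10.6 and 5.68 (-0.90), and *Lrp8os2* at 0.332 and 0.331. *Prss23*, a serine protease gene, was at 264 and 165 (-0.68), beside *Prss23os* as given above. Of the exons of *Prss23os*, 864 bases (54.3%) lie across *Prss23*, so its value cannot be told apart from that gene's if reads were counted without strand. Of the 8 partners past the fold, 6 had a transcript on the same side of no change, but only 2 of those transcripts had a mean of at least 1, *Epb41l4aos* and *Prss23os*, and both lay on their partner's side.

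In 41 pairs both the transcript and the partner had a mean of at least 1, and in 22 of them (53.7%) both lay on the same side of no change. Across these pairs Pearson's r of the log2 ratios was 0.19 and Spearman's rho 0.16, given as a description, since pairs share libraries, and 2 partners (*Dlx6* and *Tbx3*) each stand in 2 pairs. Where the annotated exons overlap, 10 of 23 pairs lay on the same side, and r was -0.13. Where they do not overlap, 11 of 17 did, and r was 0.60 (rho 0.40). These 17 include *Fzd10os* (-0.995, partner -0.53) and *Macrod2os2* (-0.67, partner -0.38), which had the lowest ratios of both transcript and partner. The value of r may rest mainly on them, and it was not computed without them.

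**Figure D3:**
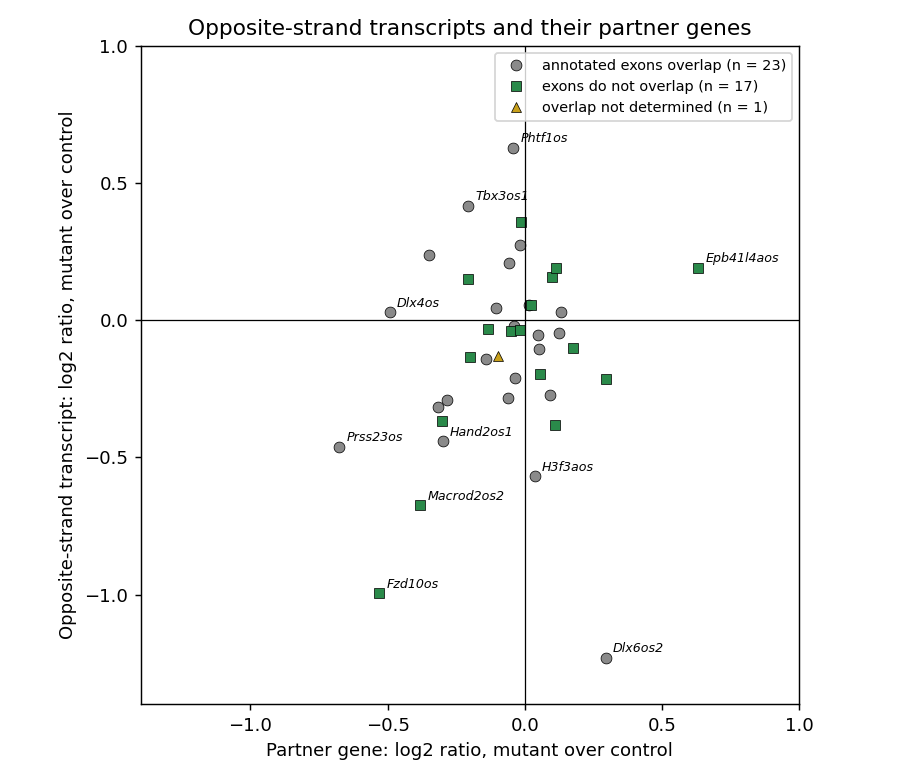
Each point is 1 of the 41 pairs, with the log2 ratio of the partner gene across and that of the opposite-strand transcript upward. Circles are pairs whose annotated exons overlap (23), squares pairs whose exons do not (17), and the triangle the 1 pair with no position for the transcript. *Fzd10os* and *Macrod2os2* lie lower left with their partners, and *Dlx6os2* lies lower right.

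Levels of a pair were set side by side per kilobase of exon. Of 40 pairs with positions, 33 transcripts were below their partner in the controls, with a median of 22.8% of the partner's level. The 7 exceptions, above their partner, were *Oip5os1*, *Brip1os*, *Epb41l4aos*, *Wdr83os*, *Dlx6os1*, *Dnm3os* and *Cep83os*.

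The members were also grouped by their arrangement to the partner, a grouping made after the values had been seen. Of 91 pairs with both positions, all lay on opposite strands, 55 shared exonic bases, and 36 had starts within 1000 bases of each other. Among transcripts with a mean of at least 1, the 8 divergent ones, which start near the partner's start and run away from it without overlap, were all lower in the mutants. They had a median log2 ratio of -0.17 and a range from -0.995 to -0.03. Of the 8 divergent transcripts with a mean under 1, 5 were higher and 3 lower, so that 11 of all 16 were lower, with a median of -0.08.

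The 8 were *Fzd10os*, *Cep83os*, *Foxd2os*, *Brip1os*, *Prdm16os*, *Ccpg1os*, *Dio3os* and *Map2k3os*, and 6 of their 8 partners were lower too, the exceptions being *Cep83* and *Brip1*. Only *Fzd10os* was past the fold. Of the 6 convergent transcripts with a mean of at least 1, 5 were higher, with a median of 0.17, and of all 9 convergent ones 6 were higher. The 16 with overlapping starts were split into 8 higher and 8 lower. Of the 6 inside their partner 2 were higher and 4 lower, of the 4 with overlapping ends 1 was higher and 3 lower, and *Dlx6os1*, which surrounds *Dlx6*, was lower.

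A single RefSeq promoter window holds both annotated starts for *Cep83os*, *Map2k3os* and *Ccpg1os*, and none was found for *Fzd10os*. The other divergent pairs were not searched. The windows of *Cep83* and *Ccpg1* are shown because a common stretch of DNA lies between an RNA that was lower and a coding gene that was not (*Cep83*), and between a pair with ratios near 1 (*Ccpg1*). The window is set by the coding gene's RefSeq start and runs along its strand. Capitals mark the bases from the transcript's start to the partner's first start in GENCODE, 79 for *Cep83os* and 48 for *Ccpg1os*, which lies 136 bases before the RefSeq start of *Cep83* and 75 before that of *Ccpg1*.
Cep83os and Cep83 (chr10:94688540-94688839, + strand): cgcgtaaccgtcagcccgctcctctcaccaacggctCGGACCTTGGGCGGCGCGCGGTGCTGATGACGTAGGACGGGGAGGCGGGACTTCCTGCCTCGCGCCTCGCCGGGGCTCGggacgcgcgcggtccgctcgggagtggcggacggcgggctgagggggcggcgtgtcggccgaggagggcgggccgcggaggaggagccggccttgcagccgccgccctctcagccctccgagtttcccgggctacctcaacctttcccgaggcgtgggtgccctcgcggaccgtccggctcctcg
Ccpg1os and Ccpg1 (chr9:72985254-72985553, + strand): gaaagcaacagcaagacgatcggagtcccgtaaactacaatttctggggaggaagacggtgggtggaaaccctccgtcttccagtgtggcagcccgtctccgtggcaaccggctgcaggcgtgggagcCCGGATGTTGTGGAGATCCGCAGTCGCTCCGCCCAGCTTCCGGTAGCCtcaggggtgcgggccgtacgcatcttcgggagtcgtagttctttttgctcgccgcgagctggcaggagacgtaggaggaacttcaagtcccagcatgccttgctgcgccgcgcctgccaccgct
The GC content was 75.7% for the first window, with 46 CpG, and 62.7% for the second, with 27, against a median of 52.7% and 7 over all RefSeq windows.

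**Figure D4:**
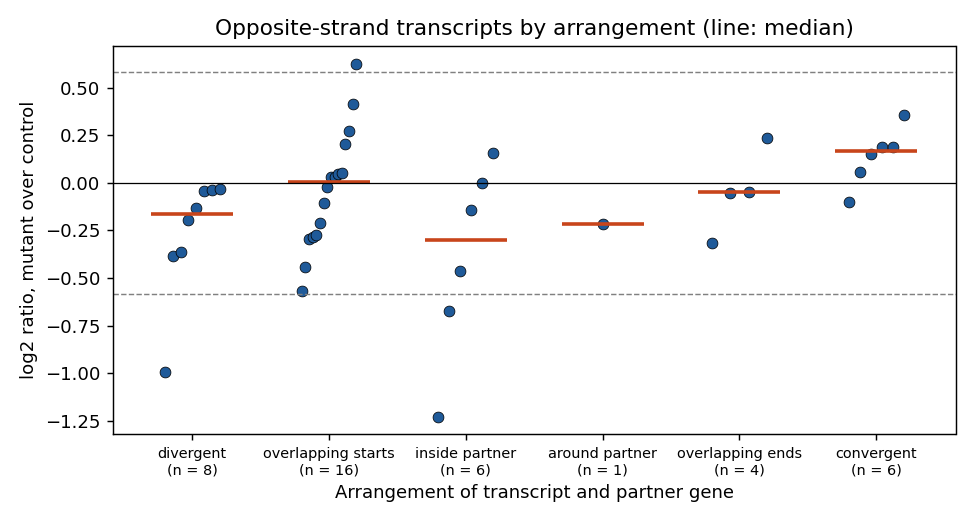
Log2 ratio of mutant over control for each opposite-strand transcript with a mean of at least 1, by its arrangement to the partner gene. Red lines are medians and dashed lines mark 1.5-fold. The 8 divergent transcripts drawn lie below 0, and 5 of the 6 convergent ones above it, whereas 5 of the 8 divergent transcripts with a mean under 1, which are not drawn, were higher.

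The dissection was of mesenchyme, but markers of several cell types were present and differed between the groups, and in bulk tissue fewer cells of a type and less RNA per cell cannot be told apart. Of 12 dental epithelium markers, 11 were past the fold on the higher side, and they summed to 1692 (controls) and 10470 (mutants), most of it from the enamel matrix genes *Amelx* (362 and 3946), *Ambn* (617 and 3360) and *Enam* (136 and 1983). Of the others in that list, *Krt14* was at 90.4 and 182 and *Shh* at 103 and 174. The marker not past the fold was *Klk4*, at 1.49 and 1.21, the lowest level of the list in both groups.

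Of 11 dental mesenchyme markers 4 were higher and 7 lower (summed level 25917 and 21777). Past the fold were *Gli1*, on the lower side at 106 and 46.1, and *Igfbp6*, on the higher side at 6.04 and 9.60. The promoter of *Gli1* drives the CreER, which only the mutant genotype names, and the part of that allele in the *Gli1* value was not tested. All 6 odontoblast markers were lower, with *Dmp1* at 68.1 and 23.7. All 4 erythroid transcripts with a mean of at least 1 were past the fold on the lower side, and the list summed to 63.7 and 22.1. All 7 macrophage markers were higher and within the fold, with a median of 0.20, and all 4 neutrophil transcripts with a mean of at least 1 were lower, with a median of -0.33. The medians of 7 endothelial and 6 pericyte and smooth muscle markers were 0.00 each. The part of these markers in the ratios of the *Snhg* and opposite-strand transcripts was not tested.

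The groups also differed in sex-linked transcripts, which the labels do not mention. *Ddx3y*, *Eif2s3y*, *Kdm5d* and *Uty* were at or near the lowest value in controls and between 25.3 and 65.3 in mutants, and *Xist* was at 3368 and 814. Only 1 member, *Rbm3os*, lies on the X chromosome, and its mean was under 1. Genes on other chromosomes can also differ by sex. With group means only, a part of sex in any ratio given here cannot be told apart from that of genotype, and it was not tested.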

How the data were processed

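Bulk RNA-seq of proximal incisor tissue from 3 control and 3 mutant mice was analysed from the deposited tables. Per the labels and the study's methods, the authors aligned trimmed reads to mm10 (the submitters' processing notes name TopHat2 2.0.8) and used Partek Flow to compare the groups. The deposited group means are a normalized signal, inferred here to be reads plus 1 times a factor per library, with an upper quartile of 44.57 to 44.58 in every library, as given by the deposited summary of each library's signal. Strand setting, counting and annotation are not given in the sources used here. The table's p-value, FDR, ratio and fold change columns hold the authors' own comparison and were not used, nor were 5 other columns of the library summary.

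The log2 ratio of the 2 group means was computed, and genes with a mean of both groups of at least 1 were kept. A ratio past 1.5-fold was counted beside the same count over all genes, with no test and no interval. The script that computes the ratio was checked on simulated libraries with known ratios. Positions are from GENCODE vM21 on GRCm38, in which 119 of 122 members were located, 7 of them through a RefSeq synonym. Named genes were every *Snhg* transcript over the minimum, opposite-strand transcripts with a level of at least 10 in either group or past the fold, their partners, list members past the fold and *Arid1b*. Cell type lists are given mostly by counts and sums, so not every list member past the fold is named. The members and gene lists were chosen with earlier results of these data known. The alternatives were other folds, filters, an added 1, centring, leaving out sex chromosomes and splitting pairs by exon overlap. Scripts ran in Python 3.11.15 with scipy 1.17.1, pandas 2.3.3, numpy 2.4.6 and, for plots, matplotlib 3.10.9.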

Additional observations from a re-analysis of the deposited data

How the results depend on the processing

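Of 49 values recomputed under other settings, 39 stayed within 1.5 times the count, within 0.1 on the log2 scale or within the exact 95% binomial interval of the share of pairs (37.4% to 69.3%, counting error over pairs only), and no median changed sign. That interval treats the pairs as independent, although they share libraries, and it is wide, so a share within it says little about stability. The count of opposite-strand transcripts past the fold, 4 in the main setting, was 1 at 2-fold, 11 at 5/4-fold, 19 with no minimum on the mean, 0 with a mean of at least 10 and 2 with an added 1. It was 2 among pairs without exon overlap and 2 among those with it, since each holds fewer transcripts. The split into pairs with exon overlap was added after the data were seen, as were the medians of noncoding transcripts and without *Snhg15*. The count of *Snhg* transcripts was 0 at every setting but 5/4-fold, where it was 2. The count of partner genes, 8 in the main setting, was 1 at 2-fold and 15 at 5/4-fold. The share of pairs on the same side was 49.5% over all 93 pairs, 64.7% without and 43.5% with exon overlap. Leaving out each replicate was not run because only group means were analysed. No paired analysis was possible because the result comes from no test and no value per mouse was analysed. At 3 reads in every library, 3 members lay at or under that level in 1 group, and ratios of members with a mean under 1 rest on few reads.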

Other observations

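Among the 51 opposite-strand transcripts with a mean under 1, 27 were higher and 24 lower in the mutants, and 15 were past 1.5-fold (29.4%). Over all 4526 genes at that level 36.4% were past it. The lowest ratio among them belonged to *Uckl1os*, at 1.20 in the controls and 0.389 in the mutants, a log2 ratio of -1.62, from about 136 and 48 reads. *Parvaos*, at 0.482 and 0.239 (-1.01), and *Fancd2os*, at 0.830 and 0.442 (-0.91), were also lower, whereas *Lef1os1*, which is named for the Wnt effector gene *Lef1*, was at 0.312 and 0.563 (0.85). They were chosen after their values were seen.

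Of the 13 members that carry the ending for another reason, 11 had a mean of at least 1, none was past the fold and 7 were higher. *Sos1* and *Sos2*, exchange factors of RAS, were at 74.8 and 75.2 (0.01) and at 32.8 and 38.2 (0.22). *Pros1*, the anticoagulant protein S gene, was at 122 and 138 (0.17), and *Nrros*, which holds latent TGF-β in myeloid cells, at 10.6 and 9.32 (-0.19).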
